A study of Rattus norvegicus with 311 samples.

Results

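The 10 genes Fabp1, Fabp4, Cd36, Slc27a2, Lpl, Vldlr, Acsl1, Acsl3, Acsl4 and Acsl5 carry fatty acids from outside the cell to acyl-CoA: they bind them, take them up, free them from lipoproteins and activate them. The genes were chosen by name, and every probe bearing a member's name was taken, whatever its level. Of the 10, 9 had 1 probe each among 22253 probes, and Acsl3 was not analysed here. Expression was measured by TempO-Seq, a targeted assay in which pairs of detector oligonucleotides are ligated on the RNA of lysed cells and sequenced, in rat liver cultures on collagen-coated multiwell plates. Hepatocytes of male Sprague Dawley rats were kept alone (monoculture, 156 libraries) or together with non-parenchymal liver cells (co-culture, 155 libraries), both cell preparations coming from a commercial supplier. Cells were exposed for 24 h before harvest on day 1, 3 or 7 after plating.

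The untreated group received vehicle alone, a substance the labels do not name. The treated groups received GW7647, a potent and selective agonist of the nuclear receptor PPARα, at 0.01, 0.1 or 1 µM, or gemfibrozil, a fibrate drug and weaker PPARα activator, at 10, 100 or 1000 µM. Others received ketoconazole, an azole antifungal, at 1, 10 or 30 µM, or phenobarbital, a classical activator of the receptor CAR, at 0.1, 1 or 10 mM. With 2 cultures and 3 days this gave 78 groups, of which 65 had 4 libraries, 7 had 3 and 6 had 5. Libraries carry a plate number (1, 3, 5, 7 or 9), which served as the replicate number. The labels call the replicates biological without saying whether they came from separate animals, so a p-value reflects how far these libraries scatter, a scatter that can be technical.

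Long-chain fatty acids reach hepatocytes from albumin and from lipoproteins, cross the membrane with the help of CD36 and the fatty acid transport proteins, travel through the cytosol on fatty acid binding proteins and are trapped as acyl-CoA by acyl-CoA synthetases. In rodent liver PPARα, bound to RXR at paired hexamers called DR1 elements, is a main activator of genes of this route, Fabp1 and Acsl1 among them. Lipoprotein lipase, Fabp4 and Cd36 are also made by other cells, such as adipocytes, macrophages, endothelial cells and mesenchymal cells.

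The start-site regions of Fabp1 and Slc27a2 are shown because these 2 genes were above vehicle in 22 of 23 plate pairs under the PPARα agonist. Each run is the 200 bases before the RefSeq start (GRCr8), 5′ to 3′ on the gene's strand, which is the plus strand for both: chr4:104749140-104749339 for Fabp1 and chr3:134257901-134258100 for Slc27a2. Capitals mark the stretch closest to the DR1 letters AGGTCANAGGTCA, found on the opposite strand, so that it reads as the reverse complement.
Fabp1: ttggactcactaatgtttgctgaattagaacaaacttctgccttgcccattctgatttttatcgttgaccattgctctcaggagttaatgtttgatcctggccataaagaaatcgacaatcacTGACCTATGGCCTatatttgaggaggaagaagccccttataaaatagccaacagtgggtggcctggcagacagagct
Slc27a2: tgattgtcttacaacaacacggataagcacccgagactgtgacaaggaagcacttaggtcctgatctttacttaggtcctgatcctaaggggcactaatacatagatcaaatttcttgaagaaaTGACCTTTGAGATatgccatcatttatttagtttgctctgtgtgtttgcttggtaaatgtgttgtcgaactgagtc
The Fabp1 stretch lies 77 to 65 bases before the start and has 1 mismatch over the 12 scored bases, and the Slc27a2 stretch lies 76 to 64 bases before the start and has 2. Among 33469 RefSeq windows of 300 bases, searched on both strands, 0.439% held a match with at most 1 mismatch and 3.77% one with at most 2. The closest stretches of Cd36 and Vldlr had 4 mismatches, and those of Acsl1, Acsl3, Acsl4 and Acsl5 had 5. Fabp4 and Lpl had no entry. The windows of Acsl1 (chr16:52532343-52532642) and Cd36 (chr4:18246332-18246631) lie inside the gene spans (52487870-52554110 and 18209088-18302142). Those of Vldlr and Fabp1 also lie inside their spans. Other starts of these genes were not searched, so their mismatches describe these windows alone. A match is a description of letters and not a site.

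Libraries held 412414 to 12272575 counts (median 6054414), and 1 library, monoculture with 30 µM ketoconazole on day 7 from plate 1, had fewer than 1000000. Values are given as CPM, counts per 1000000 on libraries scaled by edgeR's TMM method. They compare a gene between libraries and not one gene with another, since probe counts are not per length. In 33 monoculture libraries described as phenobarbital the chemical label reads ketoconazole, and they were grouped by their description. Cyp2b2, a P450 that phenobarbital induces, had a median of 9.22 CPM (0.265 to 103) in the monoculture libraries described as 10 mM phenobarbital on day 1. It had 0 to 0.910 CPM in vehicle that day and 0 in every monoculture library with 30 µM ketoconazole. Cyp2b2 also reached 12.1 CPM in 1 monoculture vehicle library of day 3. In co-culture it reached 84.0 CPM in 1 library with 30 µM ketoconazole on day 7. On days 3 and 7 its median under 10 mM phenobarbital was 0 and 0.0430 CPM, so those days do not tell the labels apart. The library labelled co-culture, 1 µM GW7647, day 3, plate 3 stood apart from its group by its Fabp1, 3.42 CPM against 76.6 to 288 in the other 4. Its number of detected probes, 9365, did not set it apart, since the plate 1 library of the group had 9321. Its total of 3122054 counts was the lowest of day 3. Its 10 most counted probes held 20.5% of its counts, against 10.1 to 15.1% in the rest of the group. Its group's changes are given with and without it. That library was picked after its member values were seen, so a call gained without it is no separate support. Plate 9 held 9 libraries, all of day 3 with GW7647 or gemfibrozil, and no vehicle library.

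In vehicle cultures the liver binding protein Fabp1 fell from day 1 to day 3, while Cd36 and Lpl rose to day 7, in both cultures. The time tests called 15 of 54 member comparisons (adjusted p under 0.05 by edgeR's quasi-likelihood test with Benjamini-Hochberg adjustment over all probes). From day 1 to day 3, 1 of 9 members was called in monoculture and 1 of 9 in co-culture, against 2.52% and 9.06% of all probes. From day 1 to day 7, 4 and 3 of 9 were called, against 22.4% and 22.8%, and from day 3 to day 7, 4 and 2 of 9, against 15.7% and 18.5%. In bulk libraries, fewer cells of a type and less RNA per cell cannot be told apart. By their labels, vehicle libraries of the 3 days share plates 1, 3, 5 and 7, in different wells. The sources used here do not otherwise say whether libraries of different days were prepared together.

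Fabp1, the abundant cytosolic fatty acid carrier of hepatocytes, had 31.9, 39.0, 43.3 and 251 CPM in monoculture vehicle on day 1 (plates 1, 3, 5 and 7), 19.4, 3.35, 4.22 and 4.23 on day 3, and 19.8, 14.5, 6.73 and 4.11 on day 7. In co-culture it had 22.7, 123, 70.9 and 146 CPM on day 1, 6.45, 3.03, 5.62 and 8.09 on day 3, and 9.86, 19.5, 9.31 and 4.37 on day 7. Every day 1 library lay above every later library of its culture. By edgeR's test Fabp1 fell by 3.49 ± 0.76 on the log2 scale (SE) between days 1 and 3 in monoculture (adjusted p = 0.0139) and by 3.89 ± 0.78 in co-culture (adjusted p = 0.00338). By day 7 it had fallen from day 1 by 2.87 and 2.98 log2 units (edgeR adjusted p = 0.00692 and 0.00536). The monoculture calls rested on single plates: without plate 7 the change was -2.09 to day 3 and -1.45 to day 7 (adjusted p = 0.188 and 0.132, edgeR). The day 3 call was also lost without plate 3 (adjusted p = 0.0975) or plate 5 (0.0934). Beside this, the summed level of 25 hepatocyte marker probes went from a median of 64444 CPM (44361 to 66099) on day 1 to 53358 (41625 to 73619) on day 3 and 18614 (4354 to 24881) on day 7 in monoculture. In co-culture it went from 62070 (53873 to 102902) to 43331 (36433 to 62960) and 14639 (13163 to 17314). On day 3, when the mean of Fabp1 was lowest, the ranges of this sum overlapped those of day 1 in both cultures. In each vehicle group 1 of the 25 was at 0. The part of these cells in the Fabp1 result was not tested.

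Fabp4, the fatty acid carrier of adipocytes, macrophages and capillary endothelium, had 379, 174, 141 and 62.7 CPM in monoculture vehicle on day 1, 291, 27.5, 97.9 and 33.5 on day 3, and 21.5, 5.97, 13 and 33.0 on day 7. In co-culture it had 534, 115, 222 and 185 CPM on day 1, 242, 98.1, 171 and 136 on day 3, and 28.6, 14.1, 47.1 and 453 on day 7. In monoculture all day 7 libraries lay below all day 1 libraries, whereas in co-culture 3 of 4 did and plate 7 did not. Fabp4 fell in monoculture by 3.25 ± 0.92 log2 units from day 1 to day 7 (edgeR adjusted p = 0.0138; 0.0503 without plate 1 and 0.0876 without plate 5). From day 3 to day 7 it fell by 2.61 (adjusted p = 0.0493; 0.288 without plate 1, 0.0754 without plate 3, 0.190 without plate 5). In co-culture the change from day 1 to day 7 was -0.89 ± 0.84 (edgeR adjusted p = 0.470), and without plate 7 it was -3.22 and was called (0.00917).

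Cdh5, the endothelial cadherin, stood apart in the same co-culture library as Fabp4. On day 7 it had 1.11, 0.714, 1.35 and 77.3 CPM on plates 1, 3, 5 and 7, and the sum of 18 endothelial marker probes was 215, 212, 304 and 742 CPM. In monoculture on day 7 Cdh5 had 0 to 2.12 CPM, against 1.75 to 24.8 on day 1. The endothelial sum there was 246 to 371 CPM on day 7 and at most 248 on day 1. Its median was higher on day 7 than on day 1, unlike Fabp4: 141, 322 and 290 CPM on days 1, 3 and 7 in monoculture. In co-culture the medians were 138, 371 and 259 CPM. Plin1, which defines adipocytes, was at 0 in 23 of the 24 vehicle libraries and at 0.139 CPM in the other. Adipoq, also an adipocyte gene, had 0, 6.25, 9.71 and 2.64 CPM in monoculture on day 3 and 0, 7.99, 5.62 and 1.52 in co-culture. It had 0.635 to 1.43 CPM on day 1 and 0.961 to 6.50 on day 7 in monoculture. In co-culture these were 0 to 1.36 and 0.556 to 2.67. The sum of 11 adipocyte marker probes was 134 to 207 CPM on day 1 and 98.6 to 171 on day 7 in monoculture, with 6 and 5 of them at 0. On day 3 it was 199 to 263 CPM there. In co-culture it was 197 to 240, 245 to 403 and 72.2 to 213 CPM on days 1, 3 and 7. The part of these cells in the Fabp4 result was not tested. Over the 78 group means the 3 probes most like Fabp4 were Cdh5 (Pearson r of log2 CPM 0.854), Esm1 (0.849) and Adgrf5 (0.843), among 11633 probes compared; the points share plates and culture time.

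Cd36, the membrane receptor that takes up fatty acids and oxidised lipoproteins, had 1.14, 0.861, 5.83 and 1.11 CPM in monoculture vehicle on day 1, 0.405, 5.36, 1.48 and 3.53 on day 3, and 31.0, 15.7, 9.61 and 15.0 on day 7. In co-culture it had 1.44, 1.48, 3.28 and 1.3 CPM on day 1, 0, 6.34, 5.32 and 2.27 on day 3, and 25.0, 18.7, 16.1 and 38.5 on day 7. The 0, on plate 1, allows up to 1.14 CPM (3 counts in that library). All day 7 libraries lay above all earlier ones in both cultures. Cd36 rose from day 1 to day 7 by 3.13 ± 0.76 log2 units in monoculture (edgeR adjusted p = 0.00543; 0.05004 without plate 7, just past the threshold) and by 3.76 ± 0.78 in co-culture (adjusted p = 0.00159). From day 3 to day 7 it rose by 2.76 (adjusted p = 0.0185; 0.0956, 0.0733 and 0.0622 without plates 1, 5 and 7) and 2.83 (adjusted p = 0.0145; 0.105 without plate 7).

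Lpl, the lipase that frees fatty acids from circulating triglyceride, had 6.81, 0.861, 2.55 and 1.75 CPM in monoculture vehicle on day 1, 9.31, 1.12, 3.80 and 2.64 on day 3, and 112, 48.5, 86.7 and 14.1 on day 7. In co-culture it had 11.3, 0.212, 4.07 and 1.86 CPM on day 1, 10.6, 5.24, 11.2 and 4.30 on day 3, and 184, 140, 123 and 32.8 on day 7. The day 7 libraries lay above all others of their culture, and plate 7 was the lowest of them in both. Lpl rose from day 1 to day 7 by 4.55 ± 0.85 log2 units in monoculture (edgeR adjusted p = 0.000645) and by 4.87 ± 0.86 in co-culture (adjusted p = 0.00033), the largest rises in vehicle among the 9 genes. Both calls were kept without any single plate. From day 3 to day 7 it rose by 4.07 and 3.96 log2 units (edgeR adjusted p = 0.00451 and 0.00352), and the monoculture call was lost without plate 5 (0.0598).

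Like Lpl, the summed level of 23 stellate and mesenchymal marker probes was higher on day 7 than on day 1. Its median was 425 CPM (137 to 491) on day 1 and 4685 (2253 to 17214) on day 7 in monoculture, and 335 (149 to 624) and 9352 (6617 to 26556) in co-culture. On day 3 it was already 795 to 1526 CPM in monoculture and 1099 to 2019 in co-culture, whereas Lpl had no call from day 1 to day 3. On day 7 the sum was highest on plate 5 in both cultures, whereas Lpl was highest on plate 1. On day 1, 4 of the 23 were at 0 in both cultures, and on day 7 1 was in monoculture and 0 in co-culture. Col3a1, a fibrillar collagen of these cells, had 1643, 585, 7444 and 510 CPM on day 7 in monoculture (plates 1, 3, 5 and 7). The 3 probes most like Lpl over the 78 group means were collagens: Col4a2 (r 0.986), Col3a1 (0.981) and Col6a2 (0.980). The sum of 20 macrophage marker probes also moved, from a median of 220 CPM (165 to 389) to 597 (437 to 786) in monoculture. In co-culture it went from 278 (245 to 382) to 1278 (990.5 to 2084). On day 1, 2 of the 20 were at 0 in both cultures, and on day 7 2 and 1. The part of either cell class in the rise of Lpl and Cd36 was not tested.

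**Figure D1:**
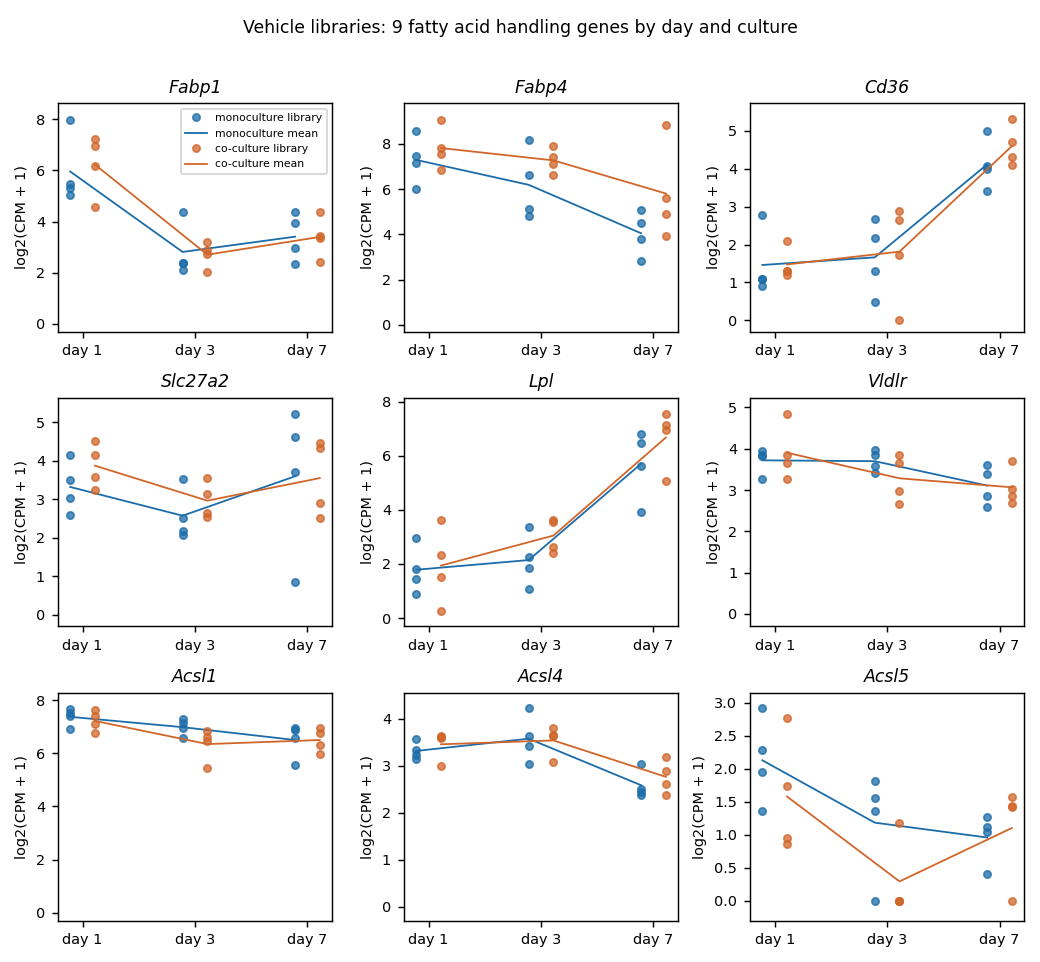
Levels of the 9 genes in vehicle libraries, as log2(CPM + 1) against day, with 1 point per library and a line through the group means of these log values, for monoculture and co-culture. Fabp1 is highest on day 1, and Cd36 and Lpl are highest on day 7, in every library of both cultures, while Fabp4 has 1 high co-culture library on day 7 at 453 CPM.

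Of the acyl-CoA synthetases Acsl4 alone had a called change in vehicle, in 1 of 6 comparisons. Acsl1, the main long-chain acyl-CoA synthetase of liver, had means of 167 ± 35.6, 127 ± 25.4 and 95.4 ± 35.0 CPM (SD, n = 4) in monoculture on days 1, 3 and 7. Its co-culture means were 151 ± 37.9, 85.2 ± 30.5 and 92.5 ± 27.5 CPM, and no change was called. Acsl4, which prefers arachidonic acid, fell in monoculture by 1.11 ± 0.37 log2 units between days 3 and 7 (11.5 ± 4.46 to 5.10 ± 1.39 CPM, edgeR adjusted p = 0.0438). The groups overlapped, and the call was lost whichever plate was left out (0.102 to 0.199), with RLE size factors (0.0605) and without the filter on low counts (0.137). Acsl5, an isoform of the endoplasmic reticulum and mitochondria, was near the floor of the assay here, with vehicle means of 0.316 to 3.71 CPM. It had no count in 60 of 311 libraries, where 3 counts stood for a median of 0.690 CPM.

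The remaining uptake genes had no called change in vehicle. Slc27a2, the fatty acid transport protein and very long-chain acyl-CoA synthetase of liver, had means of 9.80 ± 5.13, 5.48 ± 3.43 and 18.0 ± 15.1 CPM (SD, n = 4) in monoculture. Its co-culture means were 14.4 ± 5.89, 7.09 ± 2.68 and 12.8 ± 8.38 CPM. Vldlr, the receptor that holds triglyceride-rich lipoproteins at the cell surface, had 12.4 ± 2.62, 12.1 ± 2.21 and 7.96 ± 2.82 CPM in monoculture and 15.3 ± 8.48, 9.28 ± 3.79 and 7.70 ± 2.96 in co-culture. Neither gene was called between any 2 days in either culture.

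No member was called as different between co-culture and monoculture within vehicle: 0 of 27 comparisons were called by edgeR (1 at an unadjusted p under 0.05, Fabp4 on day 7), against 0% of all probes, and 0 by DESeq2, against 0.125%. Averaged over all treatments of a day, 0 of 27 were called (4 unadjusted), against 0.174% of all probes; DESeq2 called 1, Fabp4 on day 7, against 0.432%. The Fabp4 difference on day 7, co-culture minus monoculture, was 0.99 ± 0.25 log2 units (edgeR adjusted p = 0.0858; DESeq2 0.00996). Without plate 1 it was called on day 1 (0.87, edgeR adjusted p = 0.00255) and day 7 (1.57, 0.00124). With plate as a block, edgeR called 4 of the 27, against 1.9% of all probes. They were Fabp4 on day 1 (0.76 log2 units higher in co-culture, adjusted p = 2.88e-06) and day 7 (0.99, 0.00359), and Lpl on day 7 (0.69, 2.23e-05). The fourth, Fabp1 on day 1, was lower in co-culture (-0.55 log2 units, adjusted p = 0.0144). In the averaged comparison on day 7, 2 of 16 tested endothelial marker probes were called by edgeR, against 16 of 13707 among all probes. Of the 16 markers 14 had a value above 0, with a median of 0.96 log2 units against -0.01 for all probes. The part of these cells in the Fabp4 difference was not tested.

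With 1 µM GW7647, Fabp1, Cd36 and Acsl1 rose in monoculture on day 3, by 6.31, 7.00 and 2.24 log2 units, and Fabp4, Lpl, Vldlr, Acsl4 and Acsl5 were not called in any culture or on any day. The calls were 3 of 54 (19 at an unadjusted p under 0.05), against 0.053% of all probes over the same 6 comparisons. All 3 were in monoculture on day 3, where 0.0967% of all probes were called (13 of 13439, these 3 included). In co-culture on day 3 edgeR called 0 of 13439 probes, and on day 7 it called 0 of 13707 in either culture. A missing call in those comparisons is thus not particular to the members. With plate as a block 7 of 54 were called, against 0.185% of all probes, and DESeq2 called 9, against 0.363% of the probes it gave an adjusted p. The same 4 vehicle libraries served as control for every compound of a culture and day.

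Fabp1 in monoculture with 1 µM GW7647 had 366, 509, 168 and 266 CPM on day 1 (plates 1, 3, 5 and 7), 1294, 31.0, 286 and 828 on day 3 (plates 1, 5, 7 and 9), and 1839, 3362, 231 and 15.3 on day 7. On day 3 all 4 lay above all 4 vehicle libraries, whereas on each of days 1 and 7 1 treated library lay within the vehicle range. Fabp1 rose on day 3 by 6.31 ± 1.10 log2 units (edgeR adjusted p = 0.00178; 0.0771 without plate 7). The values were 1.85 ± 0.82 on day 1 and 6.89 ± 1.76 on day 7 (adjusted p = 1 and 0.637), and with plate as a block both were called, at 2.58 and 5.98 (adjusted p = 0.00399 and 0.0279). Day 1 was also called without plate 7, at 3.21 (edgeR adjusted p = 0.00538), the plate whose vehicle library had 251 CPM.

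Fabp1 in co-culture with 1 µM GW7647 had 300, 345, 63.3 and 171 CPM on day 1, 288, 3.42, 135, 76.6 and 232 on day 3 (plates 1, 3, 5, 7 and 9), and 50.3, 607, 135 and 18.5 on day 7. The day 3 groups overlapped through the plate 3 library alone, the one that stands apart. With it the day 3 difference was 4.67 ± 1.01 log2 units (edgeR adjusted p = 0.190; 0.0417 at 4.34 with plate as a block; DESeq2 2.24e-06), and without it 4.97 (edgeR adjusted p = 0.0388). Leaving out that library raised the number of GW7647 calls among the members from 3 to 5 of 54, against 0.0568% of all probes. The 2 gained were Fabp1 and Acsl1 in co-culture on day 3. The library was picked after its low Fabp1 was seen, so these gains follow from the choice and are no separate support.

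Slc27a2 in monoculture with 1 µM GW7647 was highest on plate 3 on days 1 and 7 and on plate 1 on day 3, as Fabp1 was. In monoculture it had 47.4, 103, 37.1 and 20.2 CPM on day 1, 126, 8.18, 40.0 and 86.1 on day 3, and 84.9, 206, 19.5 and 10.2 on day 7. Its lowest day 3 value was on plate 5, as for Fabp1. The differences were 2.42 ± 0.61 log2 units on day 1 (no overlap with vehicle, edgeR adjusted p = 0.0984; DESeq2 0.0138) and 3.57 ± 0.93 on day 3 (adjusted p = 0.131; 0.0312 with plate as a block; DESeq2 0.00101). In co-culture it had 73.3, 52.0, 30.2 and 15.2 CPM on day 1 and 60.3, 5.86, 27.1, 19.2 and 27.6 on day 3. The day 3 difference was 1.98 ± 0.85 log2 units (edgeR adjusted p = 0.466), and without the plate 3 library 2.24 (0.345); neither day was called.

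Cd36 in monoculture had 30.0, 11.6, 33.7 and 2.5 CPM on day 1 and 112, 13.1, 142 and 1140 on day 3, the last on plate 9. It rose on day 3 by 7.00 ± 1.60 log2 units (edgeR adjusted p = 0.0386), with groups that did not overlap. The call was lost without any one of the 5 plates (adjusted p = 0.103 to 0.576), and the difference was 4.96 without plate 9 and 4.66 with plate as a block (adjusted p = 0.155 and 0.0312). Plate 9 had the highest Cd36 of its group under every day 3 treatment it held: 58.8, 76.6 and 12.9 CPM with 10, 100 and 1000 µM gemfibrozil in monoculture and 43.6, 30.5 and 10.7 in co-culture. It had 224 and 321 CPM with 0.1 and 1 µM GW7647 in co-culture. In co-culture on day 3 at 1 µM Cd36 had 42.6, 0, 54.3, 59.8 and 321 CPM (4.78 ± 1.43 log2 units, adjusted p = 0.466; DESeq2 0.00225). Without the plate 3 library the difference was 5.06 (edgeR adjusted p = 0.345); the 0, in the library that stands apart, allows up to 1.47 CPM.

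Acsl1 in monoculture had 697, 480, 539 and 196 CPM on day 1 and 1419, 205, 504 and 330 on day 3. It rose on day 3 by 2.24 ± 0.42 log2 units (edgeR adjusted p = 0.00346), all 4 treated libraries lying above vehicle (94.7 to 154 CPM). The call was lost without plate 1 (1.45, adjusted p = 0.576) or plate 7 (2.38, 0.0990). In co-culture on day 3 it had 555, 67.9, 212, 281 and 254 CPM (1.68 ± 0.40, adjusted p = 0.212; DESeq2 0.000415), the lowest again being the plate 3 library. Without that library, which was picked after its member values were seen, the difference was 1.93 and was called (edgeR adjusted p = 0.0496). Day 1 differences were 1.53 ± 0.56 and 1.33 ± 0.55 log2 units in monoculture and co-culture (adjusted p = 1 and 0.565).

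**Figure D2:**
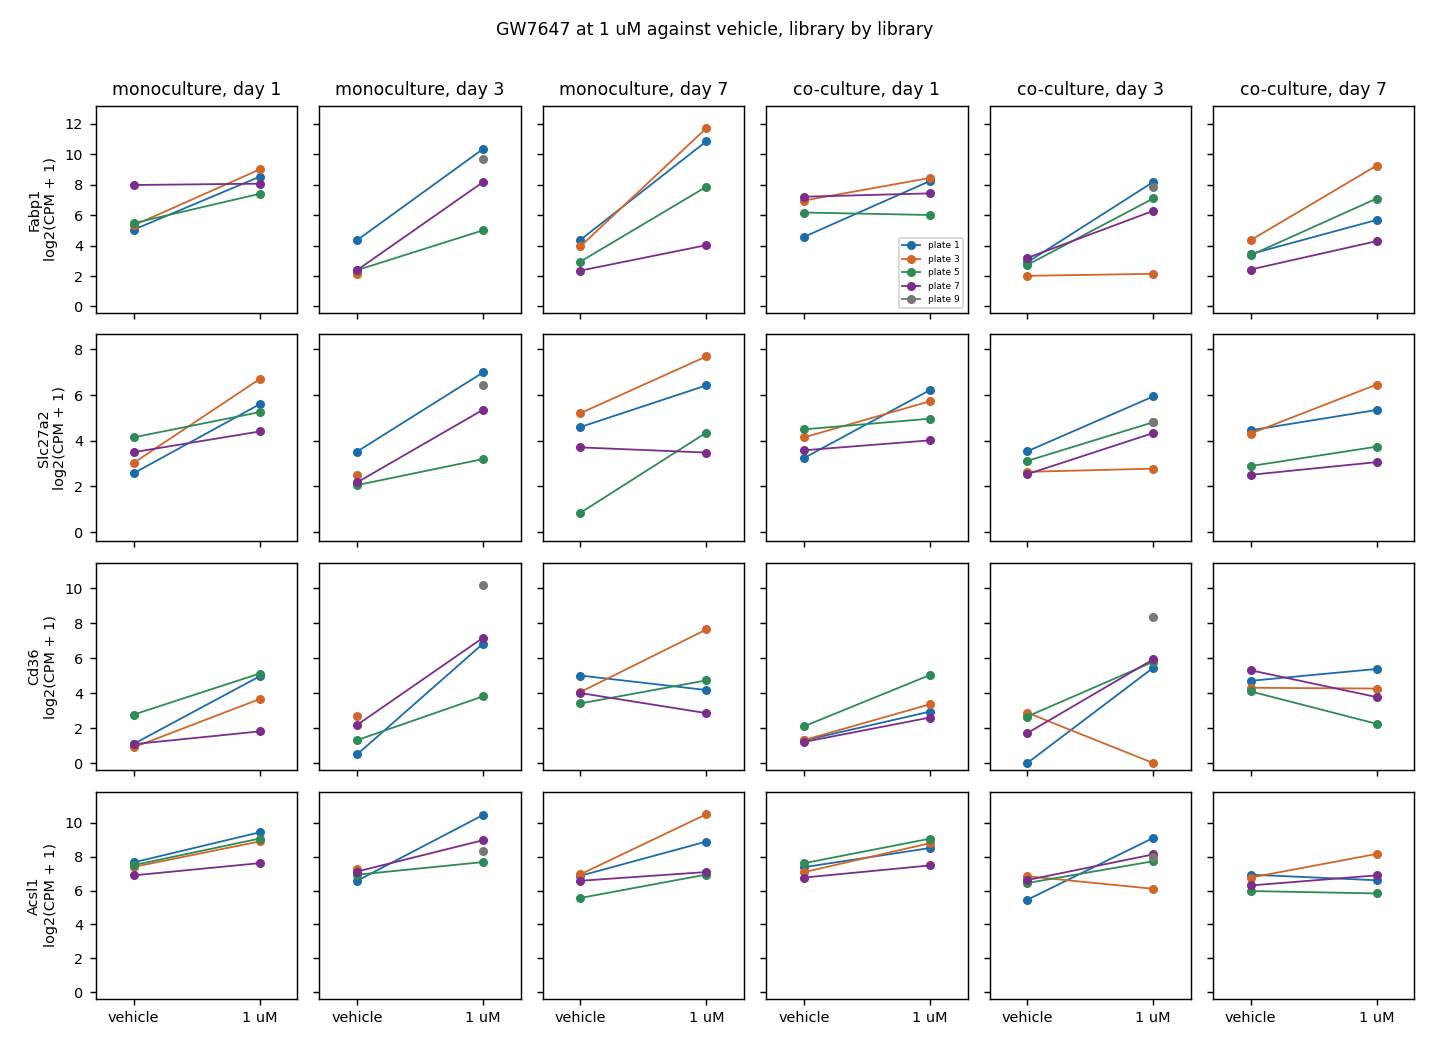
Levels of Fabp1, Slc27a2, Acsl1 and Cd36 as log2(CPM + 1) in vehicle and at 1 µM GW7647, with a line joining the libraries of 1 plate, for each culture and day. The GW7647 library is above the vehicle library of its plate in 22 of 23 pairs for Fabp1 and Slc27a2, 20 of 23 for Acsl1 and 17 of 23 for Cd36.

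Within plates, the GW7647 library was above its vehicle library in 22 of 23 pairs for Fabp1 and for Slc27a2, in 20 for Acsl1 and in 17 for Cd36. For Fabp4, Lpl and Acsl4 it was above in 11 of 23, for Vldlr in 12 and for Acsl5 in 10. Over the 6 comparisons the log2 differences of these 5 ran from -1.84 to 1.55 for Fabp4, from -0.18 to 1.12 for Lpl, from -0.25 to 0.58 for Vldlr and from 0.07 to 0.79 for Acsl4. For Acsl5 they ran from -1.41 to 1.25 log2 units.

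At 0.1 µM GW7647 the lowest Fabp1 library was on the same plate as at 1 µM in 3 groups. These were plate 5 in monoculture on day 3 and plate 7 in both cultures on day 7. The order of the others differed: on day 7 plate 1 was highest in both cultures, against plate 3 at 1 µM. Fabp1 had 168, 237, 5.10 and 59.5 CPM in monoculture on day 3 (plates 1, 3, 5 and 7) and 776, 364, 31.9 and 4.71 on day 7. In co-culture on day 7 it had 2239, 264, 68.7 and 14.5 CPM. At 0.01 µM it had 7.75, 16.6, 1.98 and 15.3 CPM in monoculture on day 3. None of 216 member comparisons at the middle doses was called by edgeR (20 at an unadjusted p under 0.05, 14 of them with GW7647), against 0.00378% of all probes. DESeq2 called 4, against 0.458%, all with 0.1 µM GW7647: Fabp1 in monoculture on day 3 (3.91 log2 units, adjusted p = 0.0136), in co-culture on day 3 (2.86, 0.0226) and day 7 (5.88, 0.0235), and Cd36 in co-culture on day 3 (4.32, 0.0104). At the low doses 0 of 216 were called by edgeR (4 unadjusted) or DESeq2, against 0.000315% and 0.173% of all probes. For 3 co-culture libraries of day 3 the description gives 0.1 µM GW7647 and the dose label 1 µM. The description set the group, and with the dose label none of the 24 day 3 member changes followed crossed the threshold.

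**Figure D3:**
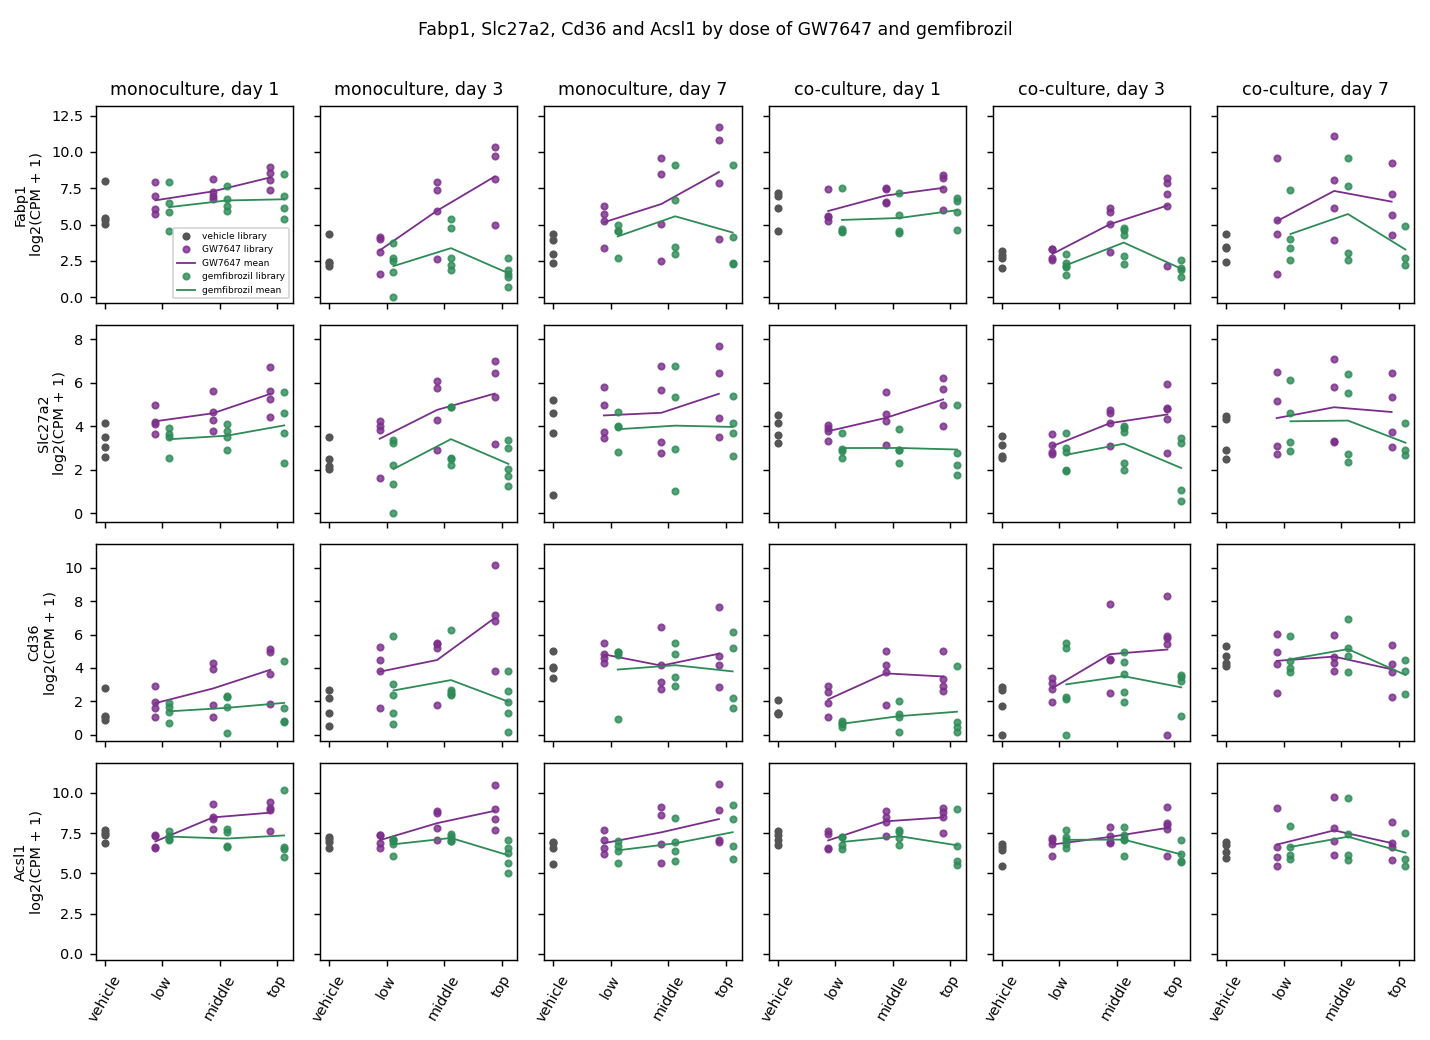
Fabp1, Slc27a2, Cd36 and Acsl1 as log2(CPM + 1) against dose step (vehicle, low, middle, top) for GW7647 (0.01, 0.1, 1 µM) and gemfibrozil (10, 100, 1000 µM), with 1 point per library and a line through the means of these log values. Fabp1 has an arithmetic mean of 610 CPM at 1 µM GW7647 in monoculture on day 3, and of 2.48 CPM with 1000 µM gemfibrozil on that day.

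Gemfibrozil at 1000 µM called 0 of 54 members (8 unadjusted), against 1.16% of all probes. DESeq2 called 1, against 4.69%, which was Vldlr in monoculture on day 1 (1.17 ± 0.40 log2 units, edgeR adjusted p = 0.0875; DESeq2 0.0354). Fabp1 in monoculture on day 3 had 0.625, 5.5, 2.73, 1.95 and 1.58 CPM (plates 1, 3, 5, 7 and 9), within or below the vehicle range. On day 1 in monoculture Acsl1 had 1172 CPM on plate 3 against 63.3 to 100.1 on the other 3 plates, and in co-culture 512 against 44.8 to 103. Cd36 and Slc27a2 were also highest on plate 3 in both cultures (20.7 and 46.6 CPM in monoculture, 16.6 and 30.4 in co-culture). At 100 µM on day 7 Fabp1 had 103, 548, 10.1 and 6.93 CPM in monoculture and 783, 202, 7.15 and 4.96 in co-culture (plates 1, 3, 5 and 7). Against vehicle, plates 1 and 3 were thus high and plates 5 and 7 were not.

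GW7647 and gemfibrozil were compared directly at their top doses, which differ (1 and 1000 µM). Of 54 comparisons 6 were called (14 unadjusted), against 0.918% of all probes. DESeq2 called 9, against 2.48%, and the block 11, against 2.77%. All 6 were higher with GW7647 on day 3. In monoculture, where 1.15% of all probes were called, these were Fabp1 (7.86 ± 1.07 log2 units, edgeR adjusted p = 7.14e-07), Acsl1 (2.98 ± 0.40, 7.14e-07), Cd36 (6.30 ± 1.39, 0.0087) and Slc27a2 (3.82 ± 0.86, 0.0103). In co-culture, where 0.469% were called, they were Fabp1 (5.56 ± 1.06, 0.00382) and Acsl1 (1.81 ± 0.40, 0.0122). Without the plate 3 library that stands apart these were 5.86 and 2.04 (edgeR adjusted p = 0.00252 and 0.0108), against 0.846% of all probes over the 6 comparisons. Fabp1 and Acsl1 in monoculture kept their calls without any single plate (highest adjusted p 0.000358 and 0.00421). The others did not: without plate 1 the adjusted p was 0.115 for Cd36 and for Slc27a2 in monoculture, and 0.0535 for Fabp1 and 0.529 for Acsl1 in co-culture. Without plate 9 the monoculture values for Cd36 and Slc27a2 were 0.0519 and 0.0735. On day 1, Acsl1 was called when plate 3, with its high gemfibrozil libraries, was left out (monoculture 2.42, edgeR adjusted p = 0.00731; co-culture 2.40, 0.0108).

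Ketoconazole at 30 µM called 0 of 54 (4 unadjusted), against 2.64% of all probes. DESeq2 called 1, against 5.4%, which was Vldlr in monoculture on day 1. Vldlr had 16.6, 15.8, 39.4 and 21.5 CPM in that group, all above the vehicle values of 8.56 to 14.5 CPM (0.96 ± 0.40 log2 units, edgeR adjusted p = 0.130; DESeq2 0.0487). Within plates Vldlr was above vehicle in 20 of 24 pairs, Slc27a2 in 4 and Lpl in 3. Slc27a2 in co-culture on day 3 had 3.88, 0.270, 0.750 and 2.88 CPM, below the 4.80 to 10.6 of vehicle without overlap (-1.86 ± 0.90, edgeR adjusted p = 0.533).

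Phenobarbital at 10 mM called 1 of 54 (4 unadjusted), against 2.34% of all probes: Slc27a2 in monoculture on day 1, in a comparison that called 4.33% of all probes. It had 80.7, 40.9, 4.42 and 26.5 CPM against 4.97, 7.17, 16.7 and 10.3 in vehicle, groups that overlapped through plate 5 (1.99 ± 0.60 log2 units, edgeR adjusted p = 0.0383). The call was lost without plate 1 (1.03, adjusted p = 0.426), plate 3 (0.103) or plate 7 (0.150), or without the filter on low counts (0.0596), and it rests on libraries whose chemical label reads ketoconazole. DESeq2 called 2 of 54, against 6.13%. With plate as a block 6 were called, the added 5 all lower, against 7.64% of all probes, so the share of members was near that of all probes. In monoculture and co-culture the block called 8.36% and 17.9% of all probes on day 3, and 4.87% and 0.613% on day 7. Fabp4 was lower on day 3 by 2.25 log2 units in monoculture and 3.30 in co-culture (adjusted p = 0.0455 and 0.00289). Lpl was lower on day 3 in co-culture (-2.62, adjusted p = 0.0280) and on day 7 in monoculture (-1.61, 0.00614) and co-culture (-1.62, 0.0186). In co-culture on day 3 Fabp4 had 12.5, 43.9 and 4.47 CPM with phenobarbital (plates 1, 5 and 7), all below the 98.1 to 242 of vehicle. The sum of the 18 endothelial marker probes moved with it. It was 26.1 to 102 CPM in these libraries against 323 to 452 in vehicle (2 and 3 probes at 0), and in monoculture 36.4 to 77.5 against 272 to 385 (9 and 3 at 0). Cdh5 was at 0 in all 3 monoculture phenobarbital libraries of day 3, against 0 to 4.64 CPM in vehicle. In co-culture it was at 0 to 0.293 CPM against 1.18 to 4.96. Pecam1, also an endothelial marker, overlapped vehicle in both cultures. It had 0 to 2.98 against 0 to 7.28 CPM in monoculture and 0.215 to 0.586 against 0 to 7.58 in co-culture. The sum of the 23 stellate and mesenchymal marker probes in co-culture on day 3 was 139 to 555 CPM against 1099 to 2019 in vehicle (5 and 4 at 0). On day 7 it was 473 to 7385 against 2253 to 17214 in monoculture (1 and 1 at 0) and 2129 to 7132 against 6617 to 26556 in co-culture (1 and 0 at 0). Acta2, the smooth muscle actin of activated stellate cells, was at 0 to 0.0893 CPM in co-culture with phenobarbital on day 3 against 5.05 to 55.6 in vehicle. Des, also a stellate marker, was at 0 in both of these groups. The part of these cells in the Fabp4 and Lpl values was not tested. Within plates Lpl was above vehicle in 2 of 22 pairs and Fabp4 in 5.

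**Figure D4:**
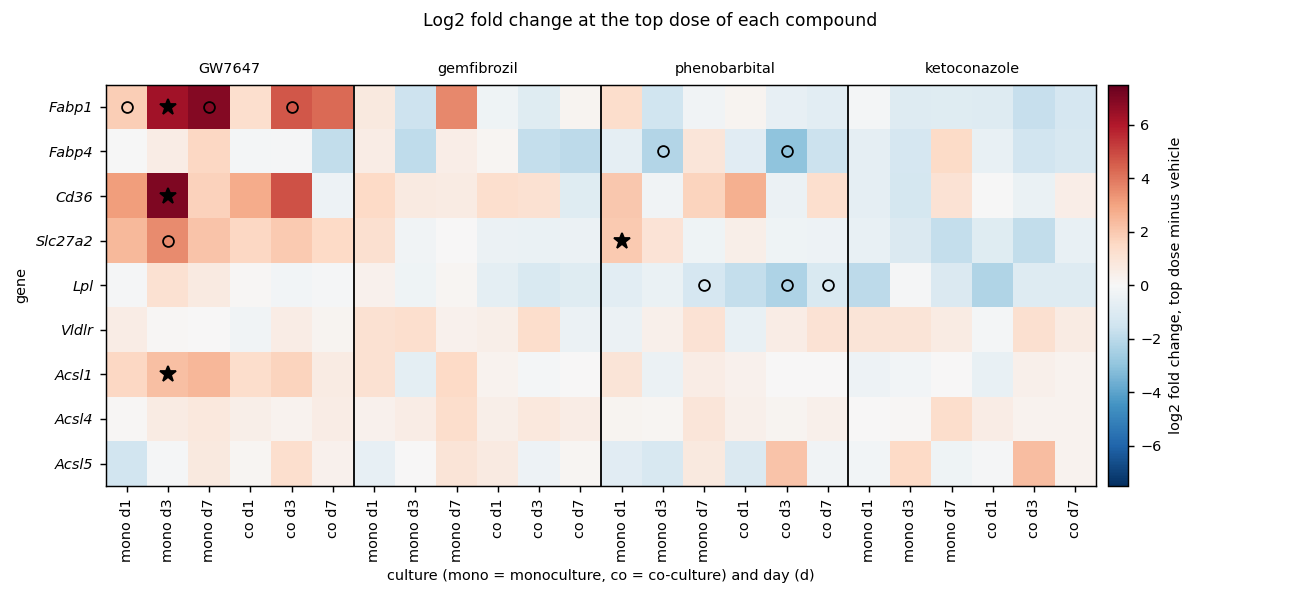
Log2 fold change against vehicle at the top dose of each compound, with genes in rows and culture and day in columns; a star shows a call by edgeR and an open circle a call made with plate as a block alone. Of 216 tiles 4 were called by edgeR, 3 of them with GW7647, and 9 more with plate as a block alone.

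The response to a top dose was not called as different between the cultures for any member: 0 of 108 by edgeR or DESeq2 (3 unadjusted), against 0.00189% and 0.0872% of all probes. The 3 unadjusted were all Fabp4 on day 7, with GW7647, ketoconazole and phenobarbital, where the co-culture vehicle holds the library at 453 CPM. For Fabp1 with GW7647 the co-culture response minus the monoculture response was -0.58 ± 1.13, -1.64 ± 1.24 and -2.64 ± 1.98 log2 units on days 1, 3 and 7 (-1.35 on day 3 without the plate 3 library).

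Other genes of the route were described from lists. Of 32 related binding, transport and activation genes, 28 had a probe. At 1 µM GW7647 none of the 19 or 20 probes tested was called on any day in either culture, against 0.053% of all probes. Their medians were -0.18 to 0.42 log2 units. In vehicle from day 1 to day 7, 3 of 18 rose and 1 fell in monoculture, and 2 rose and 2 fell in co-culture, against 22.4% and 22.8% of all probes called in either direction. These shares are near those of all probes. Slc27a3, another fatty acid transport protein, rose by 3.14 ± 0.81 and 5.43 ± 0.92 log2 units in monoculture and co-culture (edgeR adjusted p = 0.00783 and 0.000225). Got2, the mitochondrial aspartate aminotransferase once described as a plasma membrane fatty acid binding protein, fell by 1.49 ± 0.34 and 1.18 ± 0.34 (edgeR adjusted p = 0.00334 and 0.0142). Fabp3, the heart carrier, rose by 3.47 ± 1.11 in monoculture (edgeR adjusted p = 0.0272).

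Of 48 PPARα targets outside the members, 42 had a probe. With 1 µM GW7647, 11 of 40 tested rose in monoculture on day 1, where 0.112% of all probes were called. On day 3 in monoculture 6 of 40 rose, where 0.0967% of all probes were called. In co-culture 7 of 40 rose on day 1, where 0.12% of all probes were called. None fell in these comparisons, and the medians were 2.42, 2.10 and 1.79 log2 units against -0.03, 0.05 and 0.05 for all probes. In co-culture on day 3 and in both cultures on day 7 edgeR called 0 of all probes, these targets included. Ech1, an enzyme of the oxidation of unsaturated fatty acids, rose by 2.97 ± 0.50 in monoculture on day 1 (edgeR adjusted p = 0.000665). On day 3 Cyp4a1, the fatty acid ω-hydroxylase, rose by 10.77 ± 2.23 (edgeR adjusted p = 0.0114). Of 28 lipoprotein lipase partners and lipoprotein receptors, 25 had a probe. None was called with 1 µM GW7647, against 0.053% of all probes over the 3 days and 2 cultures. In vehicle from day 1 to day 7, 3 of 21 rose and 7 fell in monoculture and 2 rose and 7 fell in co-culture, against the same 22.4% and 22.8%. Apoc1, an apolipoprotein that restrains lipase, fell by 4.48 ± 0.71 and 5.18 ± 0.73 (adjusted p = 0.00012 and 3.81e-05), and Apoc2, the activator of lipoprotein lipase, fell by 2.59 ± 0.46 in co-culture (adjusted p = 0.00033, edgeR).

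Across the 78 group means, the highest correlations between members were among Fabp1, Slc27a2 and Acsl1 and between Lpl and Cd36. No clustering was run. Pearson's r of log2 CPM was 0.753 between Acsl1 and Fabp1, 0.746 between Slc27a2 and Fabp1, and 0.745 between Cd36 and Lpl. Slc27a2 had 0.666 with Acsl1 and 0.436 with Cd36. Cd36 and Fabp1 had 0.00739, and Vldlr and Lpl had -0.638. The points share plates, vehicles and culture days. The probes most like Fabp1 were 2 probes of Cyp4a2 (0.890 and 0.871) and Cyp4a1 (0.861). Those most like Slc27a2 were Cyp4a1 (0.867) and 2 probes of Cyp4a2 (0.810 and 0.807), and those most like Acsl1 were Ehhadh (0.842) and 2 probes of Cyp4a2 (0.792 each). Nearest to Cd36 were Rgd1565355 (0.903), Ucp2 (0.877) and St3gal5 (0.836). RefSeq lists Rgd1565355 as Cd36l1, a neighbour of Cd36 named for its likeness to it, so reads of the pair could be shared and its value is uncertain. Nearest to Vldlr among named genes were Trmt10c (0.773) and Hikeshi (0.771), to Acsl5 Txn1 (0.679), and to Acsl4 Borcs81 (0.647).

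Over all 78 groups the mean level spanned 1.76 CPM (co-culture, 30 µM ketoconazole, day 3) to 1362 CPM (monoculture, 1 µM GW7647, day 7) for Fabp1. For Cd36 it spanned 0.572 CPM (co-culture, 10 µM gemfibrozil, day 1) to 352 CPM (monoculture, 1 µM GW7647, day 3). Acsl1 spanned 68.4 CPM (co-culture, 10 µM ketoconazole, day 7) to 614 (monoculture, 1 µM GW7647, day 3). Slc27a2 spanned 1.94 CPM (co-culture, 30 µM ketoconazole, day 3) to 80.0 (monoculture, 1 µM GW7647, day 7), so 4 genes were highest with 1 µM GW7647 in monoculture. Lpl spanned 0.701 (monoculture, 30 µM ketoconazole, day 1) to 135 (co-culture, 0.1 mM phenobarbital, day 7). Fabp4 spanned 18.4 (monoculture vehicle, day 7) to 304 (co-culture, 1 mM phenobarbital, day 1). Vldlr and Acsl4 had narrower spans, 4.99 to 28.6 and 4.33 to 18.2 CPM, and both were highest with 1000 µM gemfibrozil on day 3.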

How the data were processed

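RNA was measured by TempO-Seq in 311 libraries. The deposited table holds counts per probe, made by the assay's supplier per the labels' protocols; its values are whole numbers without normalization. Bowtie is named per the submitters' processing notes; its version and settings, the probe sequences and the genome build are not stated in the labels. Probes were matched to the 10 genes by name, and all 9 matched probes passed the filter in every fit. The genes, the lists and the comparisons were chosen with earlier results of these data known.

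Counts were tested with edgeR 4.0.16 (R 4.3.3; TMM scaling, filterByExpr with a minimum count of 10, quasi-likelihood test), in 1 fit per day over its 26 groups and 1 fit over the 6 vehicle groups. P-values had Benjamini-Hochberg adjustment over all probes of a comparison and calls at an adjusted p under 0.05. CPM used TMM-scaled totals of all 311 libraries, and log2 CPM added a prior count of 2. Correlations used the mean log2 CPM of each group, among probes with a mean of at least 1 CPM. The tests were checked on simulated counts. Each library held 412414 to 12272575 counts, so 1 count stands for more in a shallow library and low probes are the least precise. No 2 libraries were identical, and replicates differed by more than counting noise (chi-square per degree of freedom of at least 18.6 over 471 pairs).

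Plate numbers pair libraries: same-plate libraries deviated from their group means together (mean correlation 0.260, 0.221 and 0.317 on days 1, 3 and 7, against -0.0844, -0.0588 and -0.105 between plates). Each of the 12 vehicle pairs of monoculture and co-culture had a correlation above 0.1 (0.178 to 0.887). Alternatives were a plate block, DESeq2 1.42.0, RLE size factors, no filter and each plate left out. Others were libraries under 1000000 counts left out, the GW7647 dose label in place of the description and, chosen after seeing the data, 1 library of co-culture with 1 µM GW7647 left out. From each other list, the text names up to 3 genes with the smallest adjusted p, and for each member the 3 probes most like it; which libraries and lower-dose groups are printed was chosen after their values were seen. Promoter windows come from RefSeq (GRCr8), where 8 of the 10 genes matched; the build of the files is not given in the labels used.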

Additional observations from a re-analysis of the deposited data

Results flagged for a closer look

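In groups of 4 to 5 libraries, 20 of 243 member groups in vehicle or at a top dose (8.23%) had 1 library far from the others relative to the group's range; chance gives about 1 in 20 groups. For the binding and uptake genes, in CPM against the range of the others in the group, these were Fabp1 in monoculture vehicle on day 1, plate 7 (251 against 31.9 to 43.3) and day 3, plate 1 (19.4 against 3.35 to 4.23). A further Fabp1 library was with 30 µM ketoconazole on day 1, plate 7 (203 against 34.6 to 40.9). Cd36 was high on plate 5 in vehicle on day 1 in both cultures (5.83 against 0.861 to 1.14 in monoculture, 3.28 against 1.3 to 1.48 in co-culture). It was low on plate 5 in co-culture with 1000 µM gemfibrozil on day 3 (1.12 against 8.41 to 10.7) and 10 mM phenobarbital on day 7 (14.2 against 74.7 to 76.5). Lpl was at 0 in co-culture with 1 µM GW7647 on day 3, plate 3 (others 4.24 to 11.1), at 0 in monoculture with 1000 µM gemfibrozil on day 3, plate 3 (3.42 to 5.41), and at 8.62 in monoculture with 30 µM ketoconazole on day 3, plate 1 (2.26 to 2.64). Vldlr in monoculture with 30 µM ketoconazole was at 16.3 on day 3, plate 3 (25.9 to 28.1) and at 0 on day 7, plate 1 (14.9 to 16.4), the library under 1000000 counts, where 3 counts stand for 6.07 CPM.

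For the synthetases, Acsl1 was at 1172 CPM in monoculture with 1000 µM gemfibrozil on day 1, plate 3 (others 63.3 to 100.1) and at 189 in co-culture with 10 mM phenobarbital on day 7, plate 1 (others 60 to 63.5). Acsl4 was at 7.01 in co-culture vehicle on day 1, plate 1 (11 to 11.4) and at 0 in monoculture with 30 µM ketoconazole on day 1, plate 1 (8.76 to 13.4). Acsl5, whose levels are a few counts, was at 1.26 in co-culture vehicle on day 3, plate 7 (others 0). It was at 0 in co-culture vehicle on day 7, plate 7 (1.67 to 1.96), in monoculture with 1 µM GW7647 on day 3, plate 1 (1.56 to 2.20) and in monoculture with 10 mM phenobarbital on day 1, plate 7 (2.35 to 2.89).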

How the results depend on the processing

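Of 67 member changes followed (25 called by edgeR, 34 called under an alternative alone, 8 named without a call), those called kept their sign under the alternatives run. Of the others, with each plate left out in turn, Fabp4 in co-culture vehicle ran from -3.22 to 0.0514 between days 1 and 7 and from -2.47 to 0.370 between days 3 and 7 (0.0530 without plate 5). Acsl1 for GW7647 against gemfibrozil in monoculture on day 1 ran from -0.0915 to 2.42. With RLE size factors 64 stayed on their side of the threshold, 65 without the filter, 49 with DESeq2 (18 gained a call), 49 with plate as a block (18 gained a call), and 67 without libraries under 1000000 counts. Of the 25 called by edgeR, 11, 6, 10 and 10 lost their calls without plates 1, 3, 5 and 7. Plate 9 holds no vehicle library, so the time changes, 15 of the 25, were not compared without it. Of the remaining called changes 4 lost their calls without plate 9. Counts of called members moved as follows. With DESeq2 there were 9 for GW7647, 1 for gemfibrozil, 1 for ketoconazole, 2 for phenobarbital, 4 for the middle doses and 1 for culture averaged over treatments. With plate as a replicate block there were 7 for GW7647, 6 for phenobarbital, 11 for GW7647 against gemfibrozil and 4 for culture averaged over treatments, and the block changed no other count by over 1.5 times. RLE size factors gave 1 for culture averaged over treatments, and no filter gave 0 for phenobarbital. Leaving out each plate in turn gave 1 to 5 for GW7647 (5 without the co-culture library that stands apart), 2 to 8 against gemfibrozil, 0 to 1 for phenobarbital, 0 to 2 for culture averaged over treatments. In vehicle it gave 0 to 1 and 1 to 2 from day 1 to day 3 in monoculture and co-culture and 2 to 4 and 3 to 4 from day 1 to day 7. The cause of these moves was not tested beyond the loss of libraries. Acsl5, with no count in 60 libraries, is limited by depth.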
